A study of Homo sapiens with 52 samples.

Results

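The soma effects of 2 knockdowns were set against each other gene by gene in i3Neurons, human neurons made with doxycycline through an inducible neurogenin-2 transgene in WTC11, an induced pluripotent stem cell line. The comparison took the change after hnRNPA1 knockdown minus the change after TDP43 knockdown, each against the nontargeting guide controls of its own experiment. It used 21 of the 52 libraries of the series, namely 6 hnRNPA1 knockdown, 6 hnRNPA1 nontargeting, 4 TDP43 knockdown and 5 TDP43 nontargeting libraries, all from the soma fraction. All 4 groups shared the line, the inducible transgene and CRISPR interference, in which a guide RNA brings an inactive Cas9 to a gene and silences it. Neurons were moved at day 3 to inserts with 1 µm pores, which neurites pass and cell bodies do not, and RNA was taken at day 17. TDP43 knockdown soma sample 5 held only 541 counts and was left out. A single line was used. The labels do not state that numbered libraries are independent cultures, so each p-value rests on the spread between libraries, part of which may be technical.

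Both proteins bind RNA and sit mostly in the nucleus. hnRNPA1 binds pre-mRNA broadly and often opposes the use of splice sites, while TDP-43, the product of TARDBP, binds UG-rich stretches and keeps cryptic exons out of mature messages. Both are found in the inclusions or carry mutations in forms of motor neuron disease.

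The libraries used held 8002038 to 19415973 counts in the hnRNPA1 experiment and 15719512 to 28902344 counts in the TDP43 experiment. Neuron markers as a sum were high in every group, mostly through a few genes. Their 12 genes summed to medians of 9980 and 11100 CPM (counts per 1000000 after scaling) in hnRNPA1 control and knockdown soma, and to 8060 and 8180 CPM in TDP43 control and knockdown soma. NEFM reached 4600, NEFL 2780, MAP2 2180 and DCX 1430 CPM in a library, and the others from 68.7 (TUBB3) to 997 CPM (STMN2). Such a sum can hide changes of single genes, as STMN2 fell after TDP43 knockdown. Of 11 pluripotent cell markers, LIN28B reached 44.1, DNMT3B 34.9, SOX2 16.6 and LIN28A 4.42 CPM in a library, and the other 7, with POU5F1 and NANOG among them, at most 0.955 CPM. Of 15 astrocyte and oligodendrocyte markers, SLC1A2 reached 369, MBP 28.0 and SOX10 5.79 CPM, and the others, with AQP4 at 1.35, at most 2.95 CPM. The pluripotent list summed to medians of 59.4 and 53.8 CPM in hnRNPA1 control and knockdown soma and of 84.9 and 72.9 CPM in the TDP43 groups, and the glial list to 325, 319, 361 and 342 CPM in that order. In bulk samples, fewer cells of a type and less RNA per cell cannot be told apart.

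Each targeted gene fell in its own experiment and did not pass the test in the other. HNRNPA1 stood at 381 to 441 CPM (median 423) in its 6 control libraries and at 143 to 174 CPM (median 162) in its 6 knockdown libraries. In the TDP43 experiment HNRNPA1 stood at 398, 393, 396, 371 and 359 CPM in controls and at 418, 401, 426 and 381 CPM in knockdown libraries. The groups were apart in the hnRNPA1 experiment and overlapped in the other. The log2 change was −1.37 ± 0.05 (SE) after hnRNPA1 knockdown and 0.08 ± 0.06 after TDP43 knockdown (edgeR adjusted p = 3.4e-20 and 0.33). TARDBP stood at 146, 138, 134, 132 and 138 CPM in TDP43 controls and at 23.0, 23.3, 24.8 and 25.4 CPM in TDP43 knockdown libraries. Its log2 change was −2.51 ± 0.08 there (edgeR adjusted p = 5.5e-21), with the groups apart. After hnRNPA1 knockdown it was 0.00 ± 0.06, with overlapping groups of 125 to 165 CPM and 116.4 to 157 CPM. MASP2, whose gene overlaps that of TARDBP, fell with it by 2.61 on the log2 scale. Without a stated strand setting, reads of the pair cannot be told apart.

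More genes were called after TDP43 knockdown than after hnRNPA1 knockdown. The fall of the target (log2 −2.51 for TARDBP and −1.37 for HNRNPA1), the depth and the number of libraries differed as well. Each knockdown was an experiment of its own, so knockdown and experiment cannot be told apart in the difference. Of 23232 genes tested, 1667 passed edgeR's quasi-likelihood test at an adjusted p under 0.05 after hnRNPA1 knockdown (7.18% of genes), 713 higher (3.07%) and 954 lower (4.11%). Without hnRNPA1 knockdown sample 5, 617 were higher and 614 lower. With plain library sizes in place of scaled ones 2051 genes passed, 544 higher and 1507 lower. After TDP43 knockdown 4438 genes passed (19.1%), 2070 higher (8.91%) and 2368 lower (10.2%). The difference between the effects passed for 3161 genes (13.6%), 1530 with the higher value after hnRNPA1 knockdown (6.59%) and 1631 with the lower (7.02%). With plain library sizes 3079 differences passed, 1126 and 1953. With sample number as a replicate block, 2815 genes passed after TDP43 knockdown, 1279 higher and 1536 lower, and 2054 in the difference, 1053 and 1001. The block compares libraries of the same number, so the TDP43 change then rests on 3 pairs. TDP43 control samples 5 and 6 and knockdown sample 3 have no partner and add nothing to it. Pairing and the loss of these libraries cannot be told apart in what the block changes. The median SE of the difference was 0.179 on the log2 scale, against 0.123 and 0.13 for the single knockdowns.

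A call in 1 knockdown was not in itself a difference. Of the 1012 genes called after hnRNPA1 knockdown alone, 606 did not pass the test of the difference, and of the 3783 called after TDP43 knockdown alone, 1755 did not. Of the 3161 differences, 2028 fell on genes called after TDP43 knockdown alone and 406 on genes called after hnRNPA1 knockdown alone. A further 376 fell on genes called in neither, 121 on genes called in both with the same sign, and 230 on genes called in both with opposite sign. Differences over 2-fold numbered 563, of which 314 were positive and 249 negative.

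**Figure D1:**
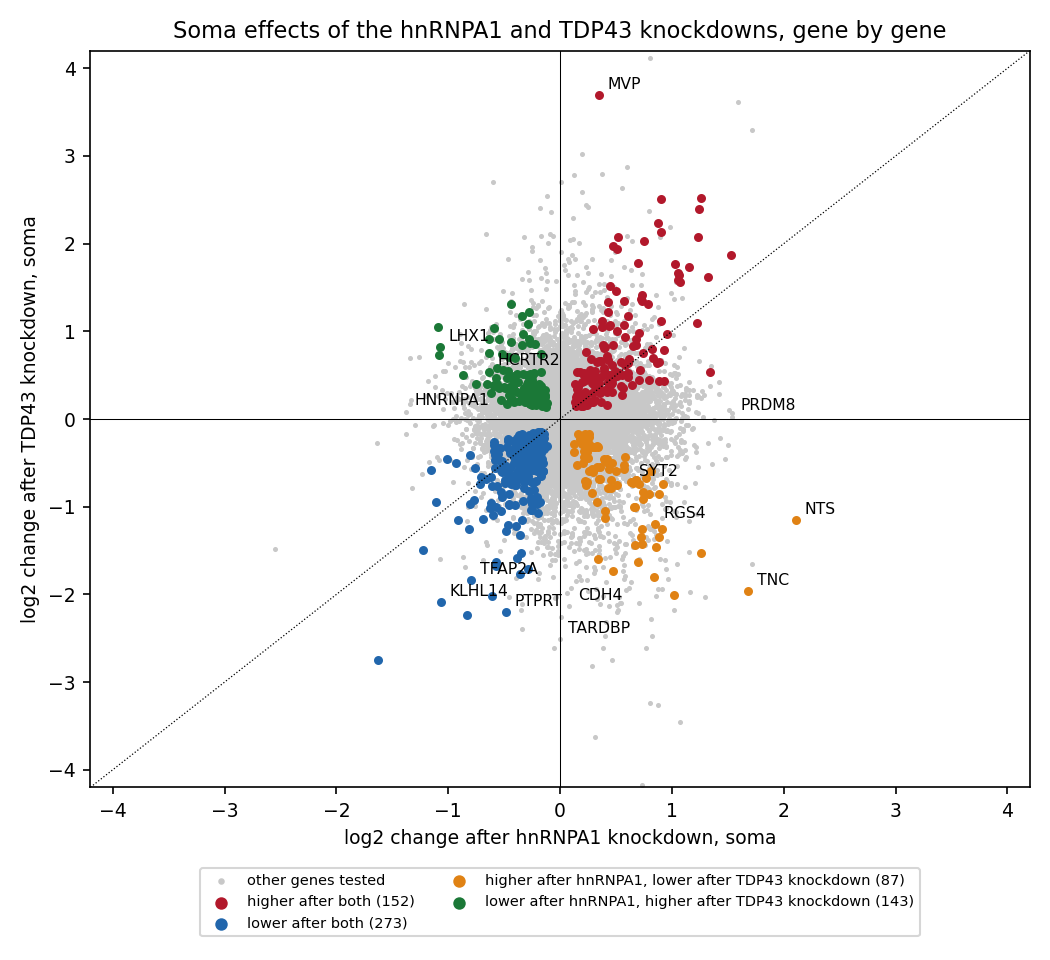
Log2 change after hnRNPA1 knockdown (horizontal axis) and after TDP43 knockdown (vertical axis) in soma, 1 point per gene tested, with 2 genes beyond the axes not drawn. Coloured points are the 152 and 273 genes called higher or lower in both and the 87 and 143 called in opposite directions, and the line marks equal changes.

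The knockdowns shared 425 called genes of the same sign (1.829% of genes tested) and had 230 of opposite sign (0.99%). In all, 152 rose in both (0.654%), 273 fell in both (1.175%), 87 rose after hnRNPA1 and fell after TDP43 knockdown (0.374%), and 143 fell after hnRNPA1 and rose after TDP43 knockdown (0.616%). With the replicate block 361 genes shared a sign and 164 were opposite, among them 318 of the 425 and 143 of the 230. The 152 genes were 21.3% of those raised by hnRNPA1 knockdown and 7.34% of those raised by TDP43 knockdown. The 273 were 28.6% and 11.5% of the lowered ones. The 87 were 12.2% of the genes raised by hnRNPA1 knockdown and 3.67% of those lowered by TDP43 knockdown. The 143 were 15% of the genes lowered by hnRNPA1 knockdown and 6.91% of those raised by TDP43 knockdown. Over all genes tested, 8.91% rose and 10.2% fell after TDP43 knockdown, so the 12.2% was near the share over all genes. Among genes called in both, Pearson's r between the effects was 0.339 and Spearman's rho 0.3 (n = 655 genes), and over all genes tested they were 0.022 and 0.019 (n = 23232). These are descriptions across genes, which are not independent replicates, and the experiments shared no library. For most genes shared in sign, the sizes did not pass the test of a difference. It passed for 45 of the 152 and 76 of the 273, of which 41 and 70 had the larger change after TDP43 knockdown.

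Genes raised in both included COL27A1, CNTNAP3 and its near-copies, PPP1R1B and PRDM14. COL27A1, a fibrillar collagen, ran from 6.03 to 8.998 CPM (median 7.24) in hnRNPA1 controls and from 15.4 to 20.8 CPM (median 16.6) in the knockdown. It stood at 1.34, 2.05, 0.850, 2.03 and 1.163 CPM in TDP43 controls and at 7.78, 9.17, 8.02 and 6.46 CPM in the knockdown. Its groups did not overlap in either experiment, although its TDP43 knockdown libraries were near the level of the hnRNPA1 controls. The changes of 1.245 ± 0.12 and 2.40 ± 0.17 (edgeR adjusted p = 4.6e-09 and 1.1e-12) differed by −1.15 ± 0.22 (edgeR adjusted p = 0.00026).

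CNTNAP3, a contactin-associated membrane protein, stood at 9.36 to 10.6 CPM (median 10.3) in hnRNPA1 controls and at 19.2 to 22.7 CPM (median 20.1) in the knockdown. In the TDP43 experiment it stood at 5.05, 5.35, 5.16, 5.13 and 4.71 CPM in controls and at 17.1, 18.5, 16.7 and 16.9 CPM in the knockdown. No knockdown library overlapped its controls in either experiment. It rose by 1.03 ± 0.07 and 1.77 ± 0.08 on the log2 scale, and the second change was larger, with a difference of −0.74 ± 0.11 (edgeR adjusted p = 3.8e-06). CNTNAP3B, CNTNAP3C and the pseudogene CNTNAP3P2 followed at 1.07 and 1.56, 1.05 and 1.67, and 1.06 and 1.64. These are near-identical copies between which reads can be split, so the level of each is uncertain. PPP1R1B, a phosphatase inhibitor of dopamine-responsive neurons, rose by 1.05 ± 0.20 and 1.59 ± 0.24, and PRDM14, a regulator of pluripotency, by 0.90 ± 0.18 and 1.118 ± 0.23. For these last genes the differences were −0.53 ± 0.32 and −0.21 ± 0.29 (edgeR adjusted p = 0.3 and 0.69).

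SIGLEC1, a sialic acid-binding lectin, and the pseudogene PDE4DIPP5 were also called in both, at medians of 0.452 and 0.762 CPM in hnRNPA1 controls. The SIGLEC1 call after hnRNPA1 knockdown (1.32 ± 0.38, edgeR adjusted p = 0.029) ended without any 1 of hnRNPA1 control samples 3 and 4 or hnRNPA1 knockdown samples 2, 3, 5 and 6 (adjusted p up to 0.0724). That of PDE4DIPP5 after TDP43 knockdown (0.97 ± 0.28) ended without TDP43 knockdown sample 2 (0.72, adjusted p = 0.0974).

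Genes lowered in both included KLHL14, TFAP2A, EVA1C and IRX3. KLHL14, a Kelch-family adaptor, stood at 23.1 to 27.4 CPM (median 26.0) in hnRNPA1 controls and at 10.01 to 13.5 CPM (median 12.5) in the knockdown. Its TDP43 control libraries were at 36.0, 42.4, 39.2, 39.0 and 42.6 CPM and its TDP43 knockdown libraries at 9.55, 10.2, 9.34 and 8.48 CPM. Neither pair of groups overlapped. KLHL14 changed by −1.07 ± 0.07 and by −2.09 ± 0.08 on the log2 scale (edgeR adjusted p = 1.5e-12 and 2.5e-20), and the difference of 1.03 ± 0.11 passed (adjusted p = 9.8e-09). TFAP2A, a transcription factor of neural crest and ectoderm, ran from 5.56 to 7.65 CPM (median 6.79) in hnRNPA1 controls and from 3.23 to 4.73 CPM (median 3.82) in the knockdown. In TDP43 controls it stood at 12.3, 9.06, 10.2, 9.14 and 10.4 CPM and in the knockdown at 3.79, 2.31, 2.64 and 2.86 CPM. All knockdown libraries of TFAP2A lay below their controls, with log2 changes of −0.79 ± 0.12 and −1.83 ± 0.13 and a difference of 1.04 ± 0.18 (edgeR adjusted p = 8.9e-05).

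EVA1C, a membrane protein that binds Slit ligands, changed by −0.71 ± 0.08 and −0.74 ± 0.08, with a difference of 0.03 ± 0.12 (edgeR adjusted p = 0.9). IRX3, a homeobox factor, gave −0.81 ± 0.16 and −0.97 ± 0.17, CCN3, a matrix-associated signalling protein, −0.91 ± 0.22 and −1.16 ± 0.21, and AK4, a mitochondrial adenylate kinase, −0.69 ± 0.17 and −1.14 ± 0.16. SH2D5 gave −0.82 ± 0.18 and −1.25 ± 0.17. The difference passed for none of these 4. PTER fell further after TDP43 knockdown (−0.84 ± 0.15 and −2.24 ± 0.17, difference 1.404 ± 0.23, edgeR adjusted p = 4.4e-05). The MOXD1 call after hnRNPA1 knockdown (−1.22 ± 0.32) ended with limma-voom (adjusted p = 0.0817), and the ZNF365 call after TDP43 knockdown (−0.93 ± 0.20) ended with the replicate block (−0.73, adjusted p = 0.0898).

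**Figure D2:**
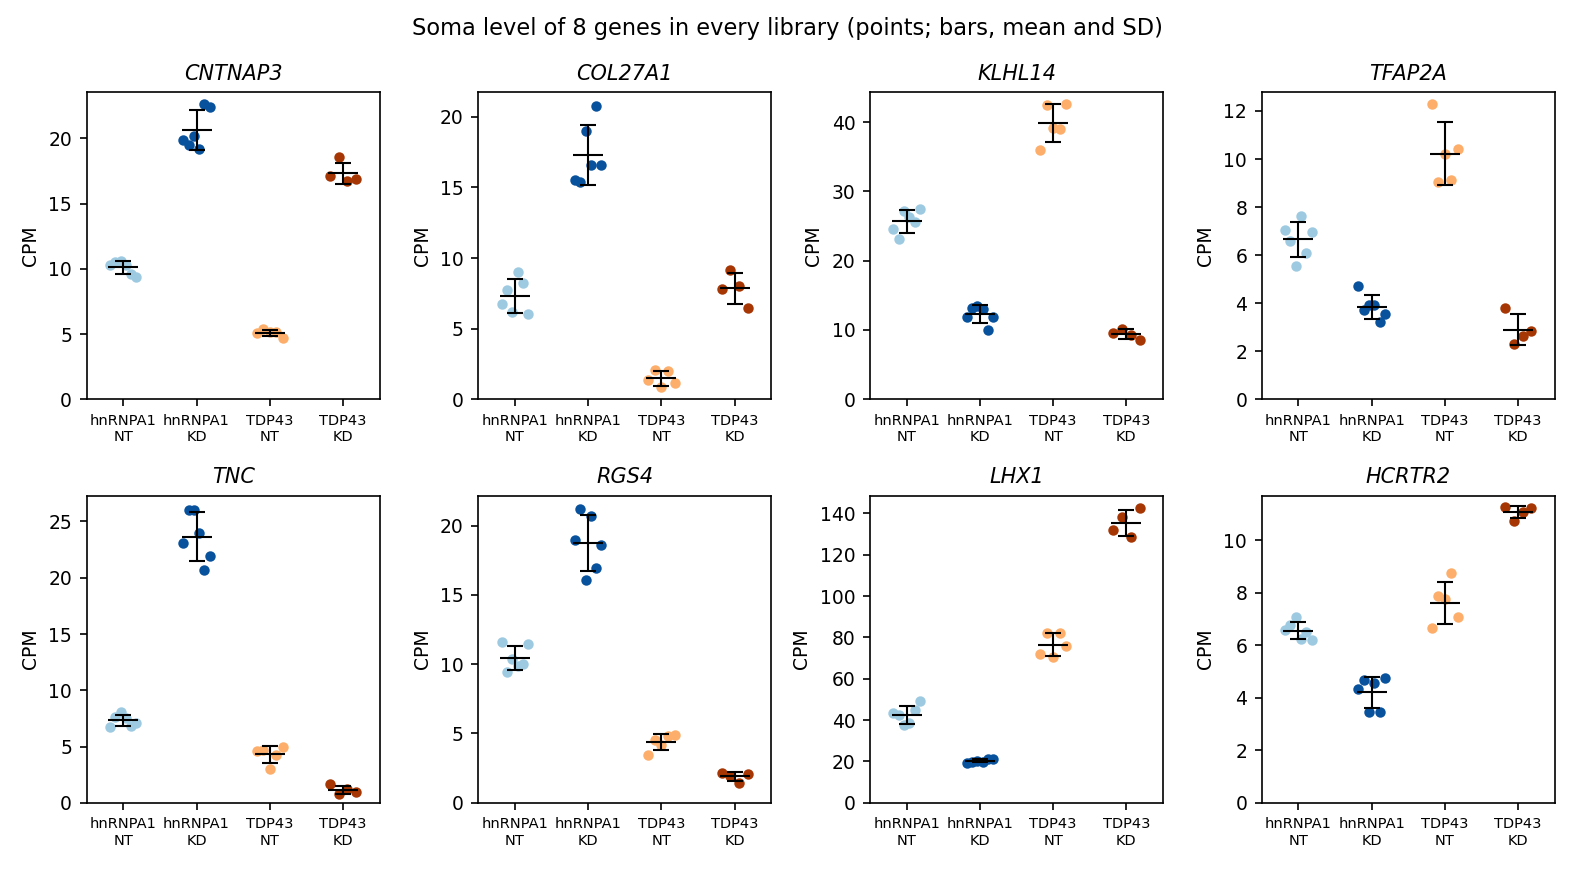
CPM in each soma library (points) of 8 genes, with mean and SD (bars), in control (NT) and knockdown (KD) groups of 6, 6, 5 and 4 libraries. CNTNAP3 and COL27A1 lay above their controls in every knockdown library, KLHL14 and TFAP2A below, TNC and RGS4 above after hnRNPA1 and below after TDP43 knockdown, and LHX1 and HCRTR2 the reverse.

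TNC led the genes that rose after hnRNPA1 and fell after TDP43 knockdown. It encodes tenascin C, an extracellular matrix glycoprotein of developing tissue. It ran from 6.77 to 8.04 CPM (median 7.35) in hnRNPA1 controls and from 20.7 to 26.0 CPM (median 23.5) in the knockdown. In the TDP43 experiment it stood at 4.61, 4.69, 2.97, 4.29 and 4.92 CPM in controls and at 1.64, 0.752, 1.214 and 0.943 CPM in the knockdown. The groups did not overlap in either experiment, and the directions were opposite. The log2 changes were 1.68 ± 0.10 and −1.97 ± 0.17 and differed by 3.65 ± 0.20, a 12.6-fold ratio of effects (edgeR adjusted p = 5.5e-16).

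RGS4, which shortens signalling by G proteins, stood at 9.40 to 11.6 CPM (median 10.2) in hnRNPA1 controls and at 16.1 to 21.2 CPM (median 18.8) in the knockdown. It stood at 3.47, 4.56, 4.19, 4.85 and 4.92 CPM in TDP43 controls and at 2.15, 1.95, 1.42 and 2.05 CPM in the knockdown. Its groups were again apart in both experiments, with changes of 0.85 ± 0.09 and −1.20 ± 0.14 and a difference of 2.05 ± 0.17 (edgeR adjusted p = 3.7e-11). SYT2, a calcium sensor of fast transmitter release, changed by 0.63 ± 0.06 and −0.72 ± 0.07, with a difference of 1.36 ± 0.09 (adjusted p = 4.5e-13). NTS, the precursor of the peptide neurotensin, was low, with medians of 0.294 and 1.097 CPM in hnRNPA1 control and knockdown soma (changes 2.11 ± 0.31 and −1.16 ± 0.22, difference 3.27 ± 0.38). PPFIBP2, a liprin-family scaffold, gave 0.88 ± 0.17 and −1.35 ± 0.28.

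ARHGAP42, ZSCAN1, KANK3 and THBS2 were called in opposite directions too. With the replicate block the TDP43 calls of all 4 ended (adjusted p = 0.117, 0.123, 0.0687 and 0.0633). The TDP43 call of THBS2, an adhesive matrix glycoprotein, was −0.74 ± 0.26 (edgeR adjusted p = 0.038) and ended without any 1 of TDP43 knockdown samples 1, 2 and 4 or of control samples 1, 2, 5 and 6 (adjusted p up to 0.121). The hnRNPA1 call of ARHGAP42 (0.91 ± 0.26) ended without hnRNPA1 control sample 2 or 3 or knockdown sample 3 or 6 (adjusted p up to 0.107).

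LHX1, a LIM-homeobox factor of spinal and hindbrain neurons, and its divergent transcript LHX1-DT led the genes that fell after hnRNPA1 and rose after TDP43 knockdown. LHX1 ran from 37.6 to 49.3 CPM (median 42.8) in hnRNPA1 controls and from 19.5 to 21.3 CPM (median 19.96) in the knockdown. It stood at 72.05, 82.2, 70.5, 81.9 and 75.9 CPM in TDP43 controls and at 132, 138, 129 and 142 CPM in the knockdown. The changes were −1.07 ± 0.06 and 0.82 ± 0.06, without overlap of groups in either experiment, and the difference was −1.89 ± 0.09 (edgeR adjusted p = 1.8e-17). LHX1-DT gave −1.09 ± 0.09 and 1.05 ± 0.07. The pair are neighbours, and without a stated strand setting reads where they meet cannot be assigned.

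HCRTR2, an orexin receptor, moved the same way as LHX1. It ran from 6.19 to 7.07 CPM (median 6.54) in hnRNPA1 controls and from 3.47 to 4.76 CPM (median 4.44) in the knockdown. It stood at 6.64, 7.87, 7.77, 8.74 and 7.09 CPM in TDP43 controls and at 11.3, 10.7, 11.1 and 11.2 CPM in the knockdown. Its groups were apart in both experiments, with changes of −0.64 ± 0.10 and 0.54 ± 0.09 and a difference of −1.18 ± 0.14 (edgeR adjusted p = 1e-07). CBLN2, a secreted synapse organiser, gave −0.64 ± 0.17 and 0.91 ± 0.12. GSG1, TVP23A, CHST9 and the noncoding LINC01915 gave −0.63 and 0.76, −0.56 and 0.58, −0.55 and 0.91, and −0.59 and 1.04, all called in both. The TDP43 call of SPDYA (0.73 ± 0.21) ended without TDP43 knockdown sample 3 or 4 (0.67 and 0.60, adjusted p = 0.0508 and 0.0933) and with the replicate block (0.61, adjusted p = 0.19).

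The most negative differences came from genes that TDP43 knockdown raised. MVP, the main protein of vault particles, ran from 4.68 to 5.95 CPM (median 5.45) in hnRNPA1 controls and from 5.54 to 7.90 CPM (median 6.79) in the knockdown, and these groups overlapped. In the TDP43 experiment it stood at 6.19, 6.48, 7.40, 8.91 and 6.93 CPM in controls and at 89.3, 105, 93.2 and 83.7 CPM in the knockdown, well apart. The changes were 0.35 ± 0.11 (edgeR adjusted p = 0.043) and 3.69 ± 0.09, and the difference was −3.34 ± 0.14. The hnRNPA1 call ended without any 1 of hnRNPA1 control samples 3, 4 and 5, hnRNPA1 knockdown samples 2 to 5 or TDP43 knockdown sample 3 (adjusted p up to 0.126). PREX2, an activator of Rac, stood at medians of 4.63 and 5.22 CPM in the hnRNPA1 groups, at 8.13, 5.09, 6.68, 6.54 and 5.50 CPM in TDP43 controls and at 39.6, 38.6, 39.8 and 37.4 CPM in TDP43 knockdown soma (difference −2.40 ± 0.15). ACKR1, a chemokine-binding receptor, and PTPRQ, a receptor phosphatase, gave differences of −2.21 ± 0.16 and −2.22 ± 0.20. Among the soma groups, the olfactory receptor pseudogenes OR5AO1P and OR5AK4P were near 0 outside TDP43 knockdown. Both rose after TDP43 knockdown in neurites as well (log2 changes 3.83 ± 0.39 and 6.59 ± 0.52). OR5AO1P reached at most 0.155 and 0.260 CPM in the hnRNPA1 groups and 0.0607 CPM in TDP43 controls, and stood at 5.88, 7.47, 6.49 and 5.45 CPM in TDP43 knockdown libraries. OR5AK4P reached 0.159 CPM in TDP43 controls and stood at 7.52, 7.72, 7.70 and 8.38 CPM in the knockdown. At the other end stood 2 receptor genes of low level. NPFFR2, a neuropeptide FF receptor, rose after hnRNPA1 knockdown and was not called after TDP43 knockdown (1.71 ± 0.31 and −1.65 ± 0.66, difference 3.36 ± 0.73), and GHRHR, the receptor of growth hormone-releasing hormone, fell after TDP43 knockdown alone by its calls (0.33 ± 0.28 and −2.06 ± 0.38, difference 2.39 ± 0.48).

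Small nucleolar RNA genes on chromosome 15 supplied several of the largest positive differences, and the stretch from SNHG14 to UBE3A was singled out after these values were seen. SNORD115 genes are near-copies inside the introns of SNHG14, a long noncoding RNA expressed from the paternal allele in neurons. Each makes a C/D box snoRNA, a class that carries a C box and a D box and that mostly guides methylation of other RNAs. Shown are 5 copies among those with the largest differences or with calls in both knockdowns, so that their likeness can be seen. Capitals mark the letters TGATGA of the C box and CTGA of the D box. The sequences are those of GENCODE release 29, read along the plus strand of GRCh38 from 5′ to 3′. In the order shown they lie at chr15:25178738-25178819, chr15:25203227-25203308, chr15:25211796-25211877, chr15:25228967-25229048 and chr15:25230838-25230919.
SNORD115-5: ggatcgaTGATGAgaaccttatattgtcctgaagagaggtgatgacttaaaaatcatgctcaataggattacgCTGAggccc
SNORD115-18: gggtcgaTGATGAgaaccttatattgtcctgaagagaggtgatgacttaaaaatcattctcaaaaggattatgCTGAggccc
SNORD115-23: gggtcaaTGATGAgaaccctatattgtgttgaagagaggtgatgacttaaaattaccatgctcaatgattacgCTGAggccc
SNORD115-32: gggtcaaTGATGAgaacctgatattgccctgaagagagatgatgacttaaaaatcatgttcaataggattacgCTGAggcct
SNORD115-33: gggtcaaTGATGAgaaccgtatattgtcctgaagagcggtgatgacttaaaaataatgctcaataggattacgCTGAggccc

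Among the 26 tested copies with a sequence, identity ran from 85.4% to 100% (median 93.9%) and 3 pairs were identical. All 26 held TGATGA with a later CTGA, read on the gene's strand only, against 29% of the 907 other annotated snoRNA transcripts of any length. Reads can be split between such copies, and the sources do not state the counting of reads with several matches, so the level of a single copy is uncertain and sums over copies are given as well.

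The tested SNORD115 copies were lower after TDP43 knockdown, and 7 of them were higher after hnRNPA1 knockdown. Of 50 annotated copies, 27 were tested, and all 27 fell after TDP43 knockdown (10.2% of all genes did), 18 of them with the replicate block. After hnRNPA1 knockdown 7 rose (3.07% of all genes did) and none fell. Among the 7, the calls of SNORD115-15 and SNORD115-31 ended with the block (edgeR adjusted p = 0.0602 and 0.075). They also ended in 16 and 10 of the fits with 1 library left out. The difference passed for 24, all positive. Those of SNORD115-6, SNORD115-14, SNORD115-35 and SNORD115-44 ended with the block (edgeR adjusted p from 0.0522 to 0.182). The 23 untested copies held at most 136 counts each over the 21 libraries. Of the tested copies, 18 averaged under 0.3 CPM in TDP43 knockdown soma, and such a copy could pass the filter on low counts only through groups where it was higher. These counts are therefore a description of the copies that passed, not of the family. The filter bears on the medians of the tested copies too, so they are not set against all genes. These median log2 changes were 0.56 after hnRNPA1 and −1.83 after TDP43 knockdown. SNORD115-5 ran from 4.33 to 7.05 CPM (median 5.78) in hnRNPA1 controls and from 8.91 to 11.1 CPM (median 9.70) in the knockdown. It stood at 6.44, 5.02, 5.28, 6.54 and 5.82 CPM in TDP43 controls and at 3.67, 2.005, 1.69 and 2.09 CPM in the knockdown. Both pairs of groups were apart for this copy, with changes of 0.72 ± 0.12 and −1.34 ± 0.16. SNORD115-23 and SNORD115-32, named by the rule among genes of opposite sign, gave 0.86 ± 0.16 and −1.46 ± 0.19, and 0.84 ± 0.19 and −1.80 ± 0.24. SNORD115-18 fell after TDP43 knockdown (−2.10 ± 0.25) and was not called after hnRNPA1 knockdown (0.55 ± 0.18).

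The summed level of the tested SNORD115 copies was 33.2 ± 4.65 CPM (SD, n = 6) in hnRNPA1 controls and 52.9 ± 7.31 CPM (n = 6) in the knockdown. The groups did not overlap. The ratio was 1.59. TDP43 controls held 47.2, 36.1, 33.4, 41.8 and 46.0 CPM and TDP43 knockdown libraries 19.2, 12.9, 11.2 and 9.63 CPM. These groups were apart as well, with a ratio of means of 0.324. The sums were chosen after the copies' values were seen and are given without a test. SNORD116 is the other large snoRNA cluster of the same host, with 33 annotated copies of which 3 were tested. They summed to 51.0 ± 6.83 CPM (n = 6) in hnRNPA1 controls and to 80.8 ± 20.5 CPM (n = 6) in the knockdown, a ratio of 1.58. In the TDP43 experiment the sums were 72.9 ± 16.2 CPM (n = 5) and 85.1 ± 25.0 CPM (n = 4). SNORD116-17 alone held 80.6% of the sum in hnRNPA1 controls, and its own change after hnRNPA1 knockdown was 0.63 ± 0.21 (edgeR adjusted p = 0.077).

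**Figure D3:**
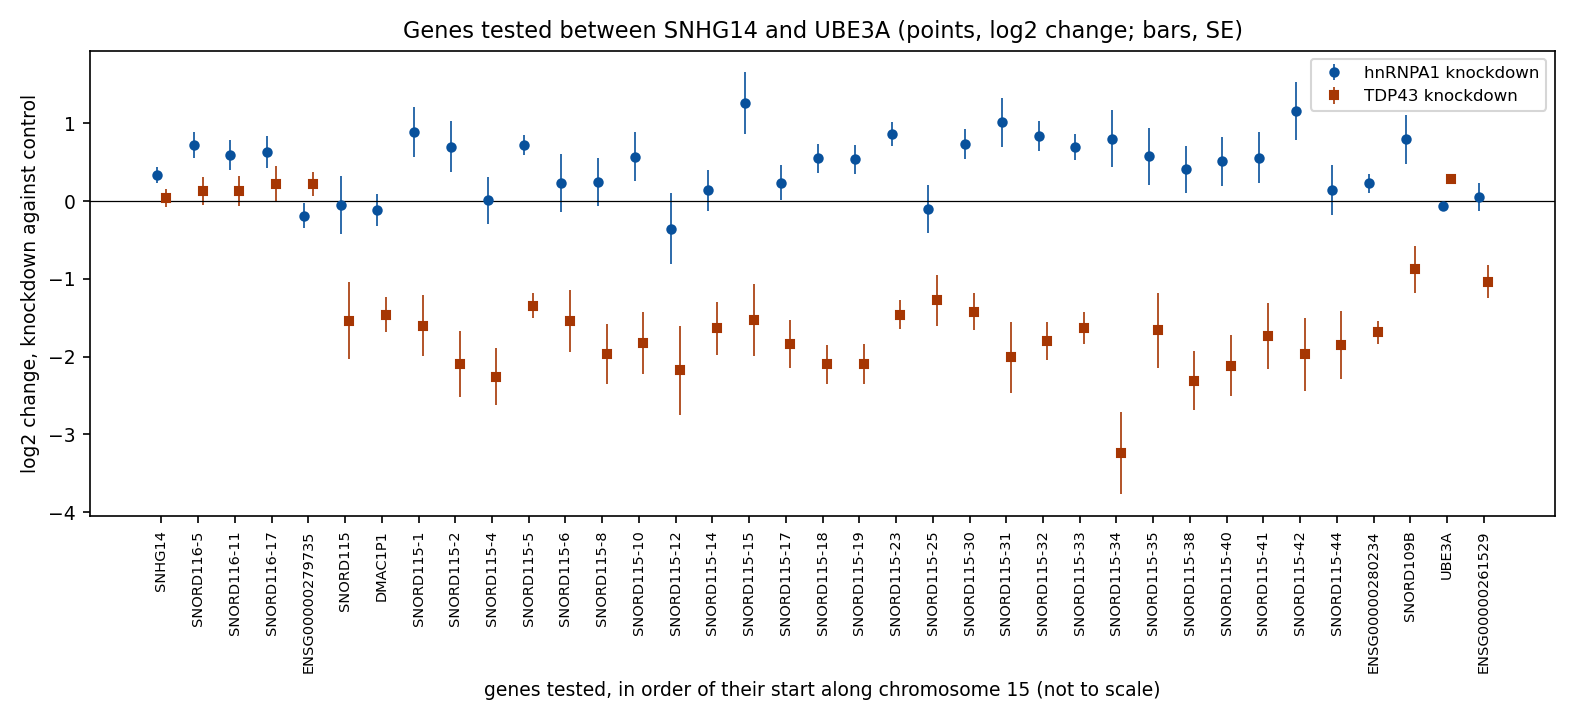
Log2 change with SE (vertical axis) after hnRNPA1 knockdown (circles) and TDP43 knockdown (squares) for every gene tested from SNHG14 to UBE3A, ordered along the chromosome. The SNORD115 copies lie below 0 after TDP43 knockdown, from −3.24 to −1.28, and from −0.35 to 1.26 after hnRNPA1 knockdown.

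**Figure D4:**
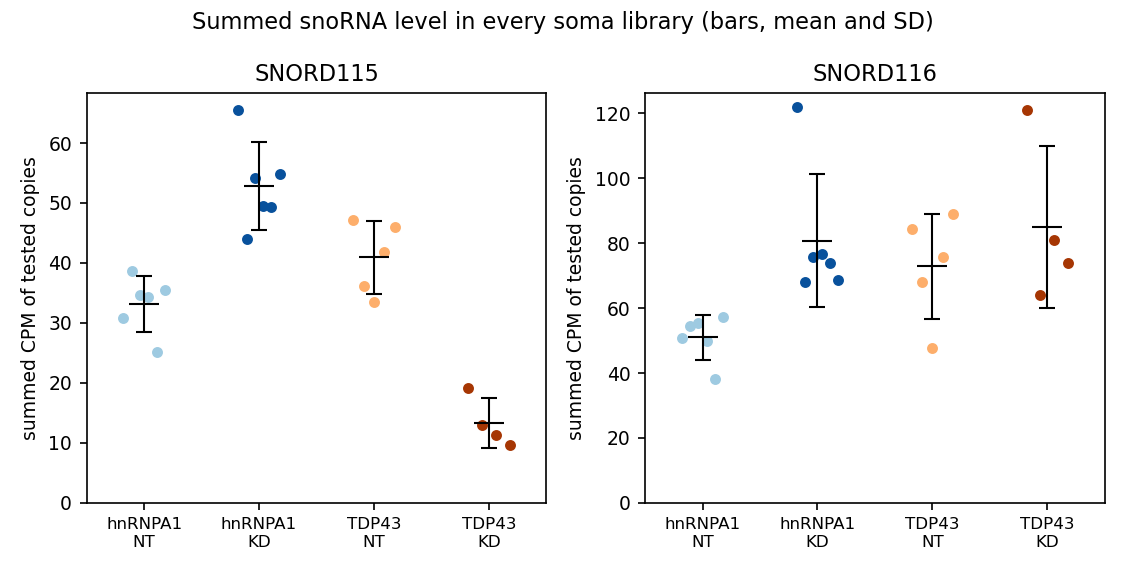
Summed CPM of the tested SNORD115 (left) and SNORD116 (right) copies in each soma library (points), with mean and SD (bars). SNORD115 was 33.2 and 52.9 CPM on average in hnRNPA1 control and knockdown soma, and its TDP43 knockdown libraries, from 9.63 to 19.2 CPM, lie below all other libraries.

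SNHG14, the host, did not pass after either knockdown (0.33 ± 0.10 and 0.04 ± 0.12, edgeR adjusted p = 0.051 and 0.87). UBE3A, the ubiquitin ligase gene that SNHG14 overlaps on the opposite strand, stood at 208, 193, 212, 195 and 198 CPM in TDP43 controls and at 246, 241, 250 and 240 CPM in the knockdown. It ran from 197 to 241 CPM in hnRNPA1 controls and from 196 to 210 CPM in the knockdown. Its groups were apart after TDP43 knockdown (0.28 ± 0.05, edgeR adjusted p = 0.00011) and overlapped after hnRNPA1 knockdown (−0.06 ± 0.05), and the difference was −0.34 ± 0.07 (adjusted p = 0.00056). Reads from the overlapping strands cannot be told apart without a stated strand setting. Besides the SNORD115 copies, 4 other features of this stretch fell after TDP43 knockdown, and none of them was called after hnRNPA1 knockdown. ENSG00000280234, an unclassified transcript at chr15:25255579-25257027 in GRCh38, stood at 28.1, 25.0, 27.7, 23.0 and 25.4 CPM in TDP43 controls and at 8.35, 9.22, 8.23 and 6.67 CPM in the knockdown, a change of −1.69 ± 0.15 (edgeR adjusted p = 5.6e-09). The pseudogene DMAC1P1 gave −1.46 ± 0.23, ENSG00000261529, an intronic transcript, −1.03 ± 0.21, and the snoRNA gene SNORD109B −0.88 ± 0.31. The SNORD109B call (edgeR adjusted p = 0.04) ended with the replicate block (adjusted p = 0.36) and without any 1 of TDP43 control samples 1, 2, 5 and 6 or of the 4 TDP43 knockdown libraries (adjusted p up to 0.143). In the hnRNPA1 experiment RN7SL and ribosomal RNA had higher mean shares of counts in the knockdown, but neither passed after adjustment. RN7SL RNA took 1.5 ± 0.398% of counts in controls and 1.98 ± 0.133% in the knockdown, and ribosomal RNA 3.24 ± 0.979% and 4.44 ± 0.449% (SD, n = 6 each, 2-sided exact permutation p = 0.0173 and 0.0303, both adjusted to 0.151 over 10 tests). The controls were split. Samples 1, 2 and 6 held 1.899, 1.874 and 1.809% RN7SL RNA and 4.675, 3.699 and 3.864% ribosomal RNA. Samples 3, 4 and 5 held 1.179, 1.189 and 1.056%, and 2.322, 2.395 and 2.479%. The part of these RNAs in the snoRNA rise was not tested.

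Counts for the gene lists are read beside the shares of all genes given above. Of 29 tested genes whose messages gain cryptic exons when TDP-43 is lost, 18 fell and 5 rose after TDP43 knockdown, and 4 fell and 2 rose after hnRNPA1 knockdown. With the replicate block 15 fell and 3 rose after TDP43 knockdown, and 1 rose after hnRNPA1 knockdown. The median log2 changes were −0.23 and −0.01. STMN2, a microtubule regulator of axons, ran from 765 to 925 CPM in hnRNPA1 controls and from 742 to 997 CPM in the knockdown. It stood at 620, 631, 676, 589 and 609 CPM in TDP43 controls and at 160, 140, 160 and 146 CPM in the knockdown. The hnRNPA1 groups overlapped and the TDP43 groups were apart. Its changes were −0.05 ± 0.06 and −2.05 ± 0.07, with a difference of 1.996 ± 0.09 (edgeR adjusted p = 1.8e-17). The RNA-binding protein gene ELAVL3 (−0.01 and −1.56), the insulin receptor INSR (−0.02 and −1.50) and the splicing regulator CELF5 (0.02 and −0.98) fell after TDP43 knockdown, were not called after hnRNPA1 knockdown, and passed the test of the difference.

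Cholesterol synthesis genes fell after hnRNPA1 knockdown, where 15 of 24 tested were lower and 0 higher, with a median of −0.24. After TDP43 knockdown 3 were lower and 1 higher, with a median of −0.07. IDI1, an isoprenoid isomerase, ran from 87.9 to 105 CPM (median 92.8) in hnRNPA1 controls and from 69.8 to 81.3 CPM (median 77.6) in the knockdown. It stood at 80.4, 80.8, 89.2, 73.9 and 83.1 CPM in TDP43 controls and at 88.0, 77.5, 91.4 and 79.7 CPM in the knockdown. The hnRNPA1 groups were apart and the TDP43 groups overlapped, and the changes of −0.31 ± 0.06 and 0.05 ± 0.06 differed by −0.36 ± 0.08 (edgeR adjusted p = 0.0029). The difference passed for 7 of the 24 genes, all negative, and some of these ended with the replicate block (edgeR adjusted p up to 0.0874). Some of the 15 calls after hnRNPA1 knockdown ended with 1 library left out (edgeR adjusted p up to 0.1455). LSS, a cyclase of the pathway, was called in opposite directions (−0.25 ± 0.05 and 0.16 ± 0.06), but its TDP43 call ended without TDP43 knockdown sample 1, 2 or 4 or control sample 1, 4 or 6 (adjusted p up to 0.141).

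Genes of the integrated stress response and of protein folding stress were called mostly after TDP43 knockdown. Of 31 tested, 14 rose and 1 fell there, 0 rose and 2 fell after hnRNPA1 knockdown, and the difference was negative for 12 and positive for 1. Some of the 14 rises ended with the replicate block (edgeR adjusted p up to 0.205) or with 1 library left out (up to 0.0961). SLC7A11, the cystine transporter, stood at 8.18, 7.07, 8.68, 9.87 and 7.93 CPM in TDP43 controls and at 16.1, 17.2, 17.7 and 16.2 CPM in the knockdown, and at medians of 28.8 and 25.0 CPM in the hnRNPA1 groups. Its TDP43 groups were apart, and the difference was −1.24 ± 0.13 (edgeR adjusted p = 5.4e-09). The serine synthesis enzyme PHGDH (−0.06 and 0.71) and the amino acid transporter SLC7A5 (−0.12 and 0.61) also rose after TDP43 knockdown. ATF5, a transcription factor of the same response, was the gene that fell (−0.77 ± 0.12).

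Surface and matrix genes were called often in both knockdowns, with mixed signs. Of 44 axon guidance genes tested, 6 rose and 14 fell after hnRNPA1 knockdown and 11 rose and 16 fell after TDP43 knockdown. Of these, 7 fell in both, 1 rose in both and 6 moved in opposite directions (4 with the replicate block and 3 with plain library sizes). With plain library sizes 3 rose and 16 fell after hnRNPA1 knockdown. PLXNA2, a semaphorin receptor, gave −0.20 ± 0.05 and −1.07 ± 0.05, and the transmembrane semaphorin SEMA6A gave 0.06 ± 0.05 and 1.125 ± 0.06. SEMA3C, a secreted semaphorin, and CNTN1, an axonal contactin, were called in opposite directions (−0.43 ± 0.07 and 0.39 ± 0.08, and −0.38 ± 0.04 and 0.30 ± 0.05). Of 42 adhesion genes tested, 3 rose and 13 fell after hnRNPA1 knockdown and 16 rose and 14 fell after TDP43 knockdown, with 8 lower in both. Without hnRNPA1 knockdown sample 5, 8 fell after hnRNPA1 knockdown, and with the replicate block 10 rose after TDP43 knockdown. PTPRT, an adhesive receptor phosphatase, fell in both (−0.48 ± 0.05 and −2.20 ± 0.06), as did the protocadherin PCDH7 (−0.62 ± 0.06 and −0.96 ± 0.06). CDH4, a cadherin of retina and other neurons, gave 0.08 ± 0.07 and −2.14 ± 0.08, a difference of 2.22 ± 0.11 (edgeR adjusted p = 2.5e-16). CDH12 rose after TDP43 knockdown (−0.17 ± 0.07 and 0.86 ± 0.07). Of 36 matrix genes tested, 5 rose and 4 fell after hnRNPA1 knockdown, and 9 rose and 4 fell after TDP43 knockdown.

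Synapse and channel genes were lowered more often than raised after TDP43 knockdown, 15 against 6 of 44 presynaptic, 12 against 5 of 40 postsynaptic and 13 against 7 of 43 channel genes. In the channel list 3 were raised there with the replicate block. After hnRNPA1 knockdown the counts were 6 against 6, 6 against 3 and 10 against 1, and with plain library sizes 10 against 4, 11 against 3 and 13 against 1. The sodium channel SCN1A fell in both (−0.49 ± 0.09 and −1.28 ± 0.10), and the calcium channel CACNA1I fell after TDP43 knockdown (−0.06 ± 0.07 and −1.03 ± 0.08). RPH3A and UNC13B, which act in vesicle docking and priming, gave −0.03 and −0.96, and −0.01 and −0.61. ARC, an activity-induced gene of dendrites, ran from 5.40 to 8.43 CPM in hnRNPA1 controls and from 7.12 to 9.96 CPM in the knockdown. It stood at 6.94, 8.99, 5.10, 7.90 and 7.30 CPM in TDP43 controls and at 4.24, 4.21, 4.64 and 3.74 CPM in the knockdown. The hnRNPA1 groups overlapped and the TDP43 groups did not, with changes of 0.45 ± 0.12 and −0.79 ± 0.14 (difference 1.244 ± 0.18, edgeR adjusted p = 6.2e-06). Of 21 immediate early and injury genes tested, 4 rose and 1 fell after hnRNPA1 knockdown, 2 rose and 6 fell after TDP43 knockdown, and 7 differences were positive and 0 negative. After hnRNPA1 knockdown 6 rose with the replicate block. BDNF, a neurotrophin of this list, fell after TDP43 knockdown (0.11 ± 0.11 and −0.94 ± 0.14, difference 1.05 ± 0.18).

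**Figure D5:**
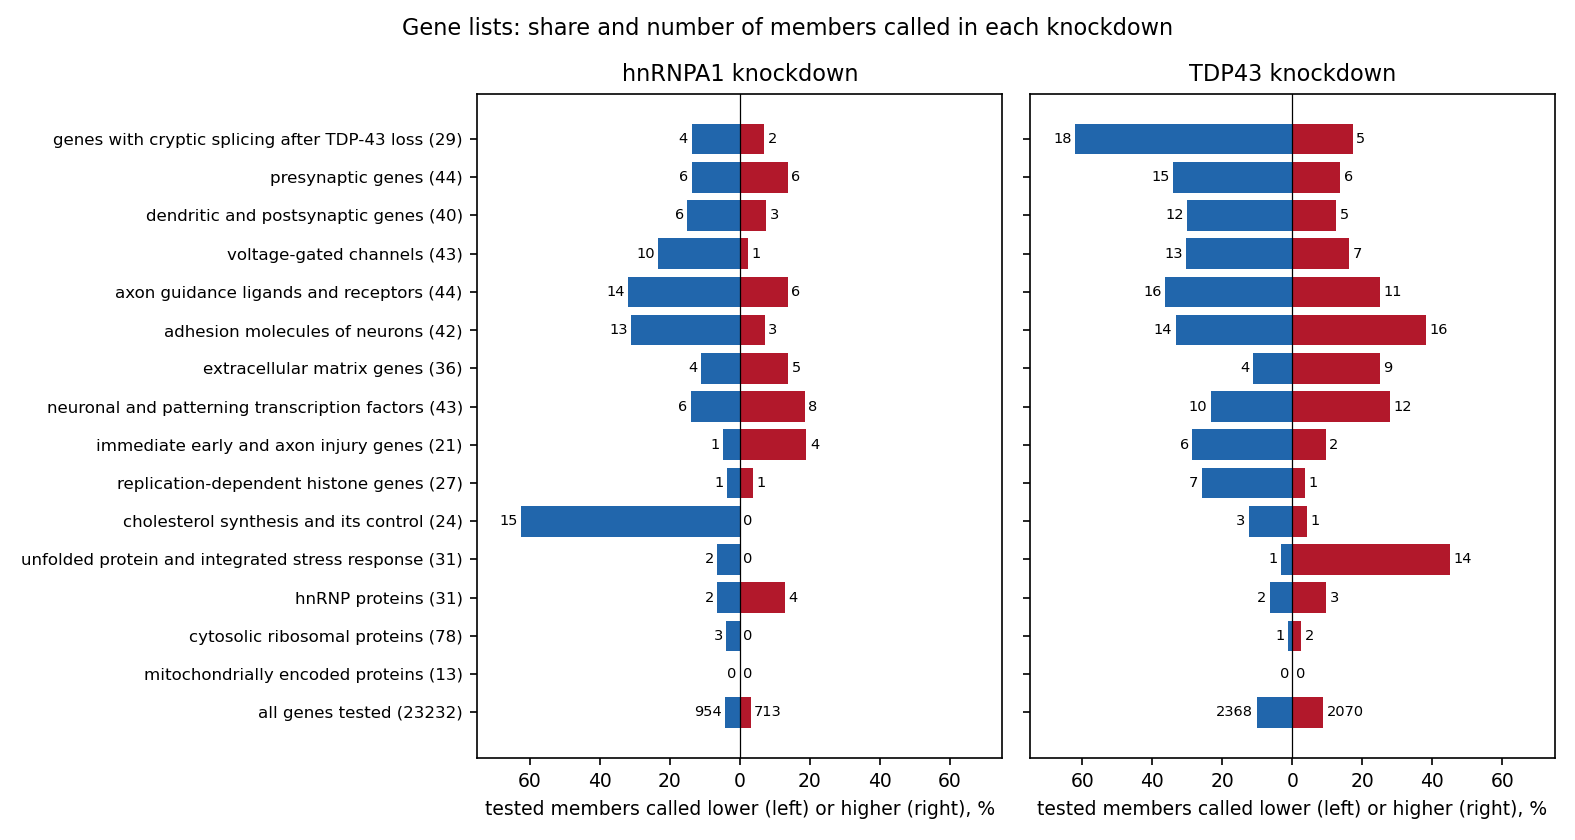
Share of tested members (horizontal axis, %) called lower (left, blue) or higher (right, red) after each knockdown, with the number of genes beside each bar and the number tested in parentheses. Of 24 cholesterol genes 15 were lower after hnRNPA1 knockdown, and of 29 cryptic splicing genes 18 were lower after TDP43 knockdown, beside 4.11% and 10.2% of all genes.

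Few ribosomal protein genes were called in either knockdown. Of 78 cytosolic ribosomal protein genes, 3 fell after hnRNPA1 knockdown, near the share of 4.11% over all genes. After TDP43 knockdown 2 rose and 1 fell, beside 8.91% and 10.2% of all genes, and 1 differed, beside 13.6%. The block fit gave 5 lower after hnRNPA1 knockdown, and 0 rose and 3 fell after TDP43 knockdown. None of the 13 mitochondrially encoded protein genes passed in any of these 3 contrasts of edgeR, in which 7.18%, 19.1% and 13.6% of all genes passed. Of 31 hnRNP genes, 4 rose and 2 fell after hnRNPA1 knockdown (0 rose and 2 fell with plain library sizes) and 3 rose and 2 fell after TDP43 knockdown (1 rose and 2 fell with the block), the targets included, and 7 differed. Of 36 motor and adaptor genes, 0 were called after hnRNPA1 knockdown, and 3 rose and 6 fell after TDP43 knockdown, against 1 and 5 with the block and 8.91% and 10.2% of all genes. Of 34 genes linked to motor neuron disease and frontotemporal dementia, 1 rose and 3 fell after hnRNPA1 knockdown (0 and 2 with the block), and 2 rose and 10 fell after TDP43 knockdown (2 and 7 with the block), both targets included.

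Patterning transcription factors were called in both directions after each knockdown, and the control levels of some differed between the experiments. Of 43 patterning transcription factors tested, 8 rose and 6 fell after hnRNPA1 knockdown, 12 rose (8 with the replicate block) and 10 fell after TDP43 knockdown, and 20 differed. Of these genes 3 rose in both, 0 fell in both and 3 moved in opposite directions. Some of the 10 falls and of the 20 differences also ended with the replicate block (edgeR adjusted p up to 0.156). PRDM8, a transcriptional regulator of developing neurons, ran from 2.97 to 3.92 CPM (median 3.30) in hnRNPA1 controls and from 8.25 to 10.6 CPM (median 9.68) in the knockdown. It stood at 0.644, 1.124, 0.850, 0.733 and 1.111 CPM in TDP43 controls and at 0.822, 0.902, 1.06 and 0.842 CPM in the knockdown, below every library of the hnRNPA1 experiment. Its changes were 1.54 ± 0.11 and 0.03 ± 0.20, with a difference of 1.51 ± 0.24 (edgeR adjusted p = 1.7e-05). PAX6, a progenitor factor, rose after hnRNPA1 knockdown (1.26 ± 0.13) from a median of 4.49 CPM and stood at 0.446, 0.595, 0.546, 0.902 and 0.740 CPM in TDP43 controls. Its difference of 1.02 ± 0.31 (edgeR adjusted p = 0.022) ended without TDP43 control sample 5 or 6 or TDP43 knockdown sample 2 (adjusted p up to 0.085) and with the replicate block (0.79, adjusted p = 0.235). NEUROD1, a proneural factor, rose in both (0.73 ± 0.10 and 1.42 ± 0.12), and EBF2, a factor of early neurons, was called in opposite directions (−0.48 ± 0.04 and 0.17 ± 0.05). With the replicate block the TDP43 call of EBF2 ended (adjusted p = 0.13). ID4, an inhibitor of neurogenic factors, gave 0.36 ± 0.05 and −0.68 ± 0.06, with no overlap of groups in either experiment (difference 1.04 ± 0.07, adjusted p = 2e-12).

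The 16 progenitor markers, of which 14 were tested, summed to 475 to 522 CPM in hnRNPA1 controls and to 597 to 672 CPM in the knockdown, and to 400 to 486 and 420 to 454 CPM in the TDP43 groups. ID4 and NES, an intermediate filament gene, held most of these sums, at means of 176 and 255 CPM in hnRNPA1 controls. Of the 14 tested genes, 3 rose and 2 fell after hnRNPA1 knockdown and 2 rose and 4 fell after TDP43 knockdown, and with the replicate block 1 fell after hnRNPA1 knockdown and 1 rose after TDP43 knockdown. SOX9, another progenitor factor, fell in both (−0.53 ± 0.10 and −1.05 ± 0.11). The 24 cycling cell markers, of which 20 were tested, summed to medians of 76.3 and 79.3 CPM in the hnRNPA1 groups and 67.9 and 66.0 CPM in the TDP43 groups. The part of these markers in the differences between knockdowns was not tested.

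Protein-coding genes of the 4 classes differed in length and composition from those tested, as a description without a test. Median gene spans were 101 kb for the 256 lowered in both and 108 kb for the 134 lowered after hnRNPA1 and raised after TDP43 knockdown, against 34.6 kb for the 14564 tested. They were 77.5 kb for the 130 raised in both and 46.1 kb for the 75 raised after hnRNPA1 and lowered after TDP43 knockdown. Median GC content was 44.8% and 43% for the lowered-in-both and lowered-then-raised classes and 51.4% and 53.8% for the raised-in-both and raised-then-lowered classes, against 48.7%. Median levels in the same order were 36.9, 46.6, 20.4 and 16.9 CPM, against 22.8 CPM, and a gene's level bears on whether it can be called. The lists of single knockdowns shifted in GC content as well. Protein-coding genes lowered and raised by hnRNPA1 knockdown had medians of 43% and 53.9%, so the shift was not particular to the 4 classes. Those lowered and raised by TDP43 knockdown had 50.8% and 45.8%. Median spans were 67.2 and 49.2 kb for the hnRNPA1 lists and 40.9 and 62.9 kb for the TDP43 lists, in the same order.

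The neurite fractions of the 2 experiments gave a second set of libraries that did not enter these calls, although they may come from the same cultures. Neurite changes and calls were taken from the fit of both fractions together. The soma libraries thus entered its filter, scaling and estimate of spread. Of the 152 genes raised in both in soma, 151 were tested in neurites and 131 had the same signs there (86.8%), with 62 called in both. The counts were 212 of 273 (77.7%) for genes lowered in both, 95 of them called in both, 61 of 87 (70.1%) for those raised after hnRNPA1 and lowered after TDP43 knockdown, with 24 called, and 123 of 143 (86%) for the reverse, with 60 called. Of the 22890 genes tested in neurites, 25.4%, 28.3%, 23.7% and 22.5% had the signs of these 4 classes in this order, and 2.04%, 1.083%, 0.537% and 1.442% were called in both with them.

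Of the 10 genes that the naming rule took from each class, 9, 7, 9 and 10 had the soma signs in neurites, and 5, 6, 4 and 6 were called in both with them. In neurites TNC changed by 1.38 ± 0.11 and −1.30 ± 0.17, LHX1 by −1.05 ± 0.10 and 1.137 ± 0.08, and KLHL14 by −0.87 ± 0.13 and −1.09 ± 0.11, each called in both with the soma signs. HCRTR2 (−0.95 ± 0.20 and 0.18 ± 0.17) and NTS (1.96 ± 0.20 and −0.40 ± 0.21) had the soma signs but were not called after TDP43 knockdown. The sign of 1 change differed from soma for PDE4DIPP5 (−0.17 ± 0.43 after TDP43 knockdown), MOXD1 (0.01 ± 0.41 after TDP43 knockdown), THBS2 (0.24 ± 0.20 after TDP43 knockdown), SH2D5 (0.16 ± 0.31 after hnRNPA1 knockdown) and ZNF365 (0.05 ± 0.21 after hnRNPA1 knockdown).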

How the data were processed

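Total RNA from soma fractions was sequenced from libraries made from 10 ng of RNA with version 3 of a low-input kit, per the labels' protocols. The deposited table holds expected counts for 63241 genes. The authors made them with STAR 2.7.11b on hg38, followed by featureCounts (Subread 2.0.6), per the submitters' processing notes. Strand and multi-mapping settings were not given in the sources. Nonzero values were whole in 81.1% of cases (within 0.005), and all were rounded for the tests.

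Groups came from sample titles. The 21 libraries were fitted together in edgeR 4.0.16 (R 4.3.3) after TMM scaling and filterByExpr, with a mean for each group, a 2-sided quasi-likelihood test and Benjamini-Hochberg adjustment over the 23232 genes of a contrast. The difference is the hnRNPA1 change minus the TDP43 change. The steps were tested on simulated data. Positions and types came from GENCODE release 29. The members, gene lists and tests were chosen with earlier results of these data known.

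Genes named were HNRNPA1 and TARDBP, then, with a mean of at least 1 CPM in a group, the 10 genes of each shared and opposite class with the largest smaller change, the 12 largest differences each way, and up to 4 members per list. Some genes that the rule names are not reported here. SNORD115-5, SNORD116, SNHG14, UBE3A, ENSG00000280234, ENSG00000261529, DMAC1P1, SNORD109B, SEMA3C, CNTN1, PCDH7, BDNF, NEUROD1, EBF2, NES and SOX9 were named after their values were seen. The 46 pairs of libraries within groups differed by more than sampling noise (chi-square per degree of freedom 2.51 to 30.9). Same-numbered libraries were checked for pairing by the correlation of their deviations from group means over 5000 genes. In the TDP43 experiment the 3 pairs gave 0.175 to 0.384, above the limit of 0.1 in every pair. Values with the replicate block are therefore given for the totals, for some of the list counts and for calls on single genes that it ended. In the hnRNPA1 experiment 6 pairs gave 0.025 to 0.417. Alternatives were DESeq2 1.42.0, its size factors in edgeR, limma-voom (limma 3.58.1), plain library sizes, no filter, both fractions in 1 fit, the block, and each library left out. Every gene named by the rule was screened for libraries that stand apart from their group.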

Additional observations from a re-analysis of the deposited data

Results flagged for a closer look

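In each group of 4 to 6 libraries, the highest or lowest library was taken as standing apart when its gap to the next one was above Dixon's 95% critical share of the group's range. The 170 genes that the rule names gave 680 groups, and 5 library measures gave 20 more. Of these 700 groups 41 passed (5.86%), in 34 genes, and chance alone flags about 1 in 20. None of the library measures passed. Each value below is the CPM of the library that stood apart.

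In hnRNPA1 control soma, 1 library stood above the others for CNTNAP3B at 10.8, GSG1 at 5.49, MCM2 at 15.1, RPL22 at 99.6, PRPH at 3.16 and RPH3A at 24.9 CPM. In hnRNPA1 control soma, 1 library stood below the others for PTER at 2.57, DNMT3B at 13.4, CDH12 at 9.22 and IFIT2 at 0.155 CPM.

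In hnRNPA1 knockdown soma, 1 library stood above the others for PDE4DIPP5 at 2.3, SH2D5 at 2.34, MAP2 at 2180, DNMT3B at 15.6, INSR at 102, ATF5 at 10.7, ROBO3 at 3.38 and XPO1 at 134 CPM. In hnRNPA1 knockdown soma, 1 library stood below the others for AK4 at 3.06, CBLN2 at 0.811, PRPH at 0.811, TUBB4A at 217 and DYNLL1 at 82.3 CPM.

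In TDP43 control soma, 1 library stood above the others for CNTNAP3B at 4.65, KIF1C at 37.8, FDXR at 5.02 and MALAT1 at 205 CPM. In TDP43 control soma, 1 library stood below the others for NEFM at 1810, MCM2 at 10.2, KCNQ5 at 0.397, MIAT at 528 and MIR124-2HG at 92.9 CPM.

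In TDP43 knockdown soma, 1 library stood above the others for AK4 at 7.65, SNORD115-32 at 1.96, SNORD115-42 at 0.569 and PRPH at 1.9 CPM. In TDP43 knockdown soma, 1 library stood below the others for MOXD1 at 0.264, SPDYA at 1.01, ACKR1 at 16.7, NDUFV2 at 6.01 and KIF1C at 26 CPM.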

How the results depend on the processing

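With sample number as a replicate block, 2815 genes passed after TDP43 knockdown and 2054 in the difference, against 1650 after hnRNPA1 knockdown, 361 shared and 164 opposite genes. Of the main calls 318 of the 425 shared and 143 of the 230 opposite genes remained with the block. In the hnRNPA1 experiment 2 of 6 libraries correlated best with their own number and in the TDP43 experiment 2 of 3, so what the numbers mark is uncertain. The TDP43 change in the block fit rests on 3 pairs only, and unpaired libraries add nothing to it. The block ended no other call that the report gives for a single gene. The other alternatives kept each of these 5 totals within 1.5 times its main value, but not the split after hnRNPA1 knockdown, where the 954 lower genes became 1507 with plain library sizes and 614 without hnRNPA1 knockdown sample 5. Leaving out each library in turn gave 1231 to 1866 genes after hnRNPA1 knockdown, 3523 to 4828 after TDP43 knockdown, 2589 to 3657 differences, 330 to 435 shared and 184 to 261 opposite genes. Of 316 calls on named genes 266 held in every such fit. TARDBP after hnRNPA1 knockdown, at 0.00 and not called, turned negative with plain library sizes (−0.0483), limma-voom (−0.0063), no filter (−0.0339) and 10 fits with a library left out (leave-one-out range −0.0216 to 0.061). Depth limits what can be called in genes near 1 CPM and below.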
